A study of Mus musculus with 15 samples.

Results

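The 10 genes followed here act on collagen between its synthesis and the finished fibril, and were measured in tarsal joints of mice with collagen-induced arthritis (CIA). Plod1 and Plod2 hydroxylate lysines and P4ha1 and P4ha3 hydroxylate prolines of the new chains. Crtap and Ppib belong to the complex that modifies and folds them, and Serpinh1 is the chaperone HSP47. Bmp1 and Pcolce act in the removal of the C-terminal propeptide, and Lox begins the crosslinking of fibrils. The 10 were chosen with earlier results of these data known, by symbol in the array's annotation, and taken in the order of these steps. All 10 were measured, each by 1 probe set, among 19938 genes. Arthritis had been induced in male DBA/1JBom mice with chicken type II collagen in complete Freund's adjuvant, followed by a boost in incomplete Freund's adjuvant. Joints had a clinical score of 3 when taken in the first 3 phases, which are day 0 to 3, then week 1 to 2 and finally week 3 to 4 of clinical arthritis, and in the declining disease phase the score had been 3 and had then fallen by at least 1. The labels give that earlier time at score 3 as more than 2 weeks and the series record as at least 3 weeks. The 3 controls of the same strain are labelled as not induced, and whether they had adjuvant without collagen is not settled by the methods. Each array holds RNA of 1 whole joint of 1 mouse, with skin and visible muscle removed and other soft tissue kept. The submitters' labels mark 1 of the 3 arrays of day 0 to 3 (animal 57) as failing quality control, so 14 of the 15 arrays were used, 2 at day 0 to 3 and 3 in every other group.

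Collagen chains are hydroxylated, folded into a triple helix and kept from aggregating in the endoplasmic reticulum, and are then secreted as procollagen. Outside the cell the propeptides are cut off, fibrils assemble, and oxidised lysines join neighbouring molecules into crosslinks. In the joint these enzymes are at work in bone, tendon, cartilage and synovium, and stable hydroxylysine crosslinks made through Plod2 are typical of bone, cartilage and fibrotic tissue.

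The values are log2 expression from RMA, so that a step of 1 is a 2-fold change. The SD over genes, a measure of an array's signal range, was 1.22 to 1.46 on the controls, 1.48 to 1.65 on the arrays of the first 3 phases and 1.28 to 1.59 in decline, and was lowest on control 2 and animal 10 of the decline group. The markers of tissue outside bone and synovium also varied. The mean log2 level of 6 skeletal muscle genes was 11.22 to 12.01 in controls and 9.30 to 9.33 at day 0 to 3, and that of 6 epidermis genes was 6.26 to 10.73 in controls, 5.69 to 6.61 on the arrays of week 0 to 2 and 7.28 to 11.64 later. Adipocyte markers (3 of 4 measured) lay at 9.12 to 9.27 in controls, 8.30 to 8.31 at day 0 to 3 and 8.38 to 8.64 in week 1 to 2, with 2 called lower in each early phase (Adipoq and Plin1), and their mean had a correlation of -0.86 with that of the 10 genes over the 14 arrays. Fibroblast markers (5 of 5 measured) lay at 8.74 to 9.59 in controls, 9.69 to 9.77 at onset (day 0 to 3) and 9.60 to 9.85 in the next phase, macrophage markers (5 of 5) at 7.34 to 7.95, 8.57 to 8.94 and 7.91 to 8.55, and osteoblast markers (3 of 5) at 8.52 to 8.89, 8.65 to 8.79 and 9.13 to 9.38. The log2 changes in these 2 phases ran from -0.20 to 1.18 and -0.28 to 1.81 within the fibroblast list (1 and 1 called higher). They ran from 0.81 to 1.44 and 0.32 to 1.07 for macrophages (3 and 0 called), and from -0.77 to 1.06 and -0.09 to 1.30 for osteoblasts (1 and 1). Of 5 chondrocyte and 5 neutrophil markers 0 were called in either phase, while 4.46% and 5.41% of all genes were called higher. Over the 14 arrays the correlation with the mean of the 10 genes was 0.95 for fibroblast, 0.92 for macrophage and 0.30 for osteoblast markers. It was 0.57 for chondrocyte, 0.32 for neutrophil, -0.60 for muscle and -0.37 for epidermis markers. In such bulk samples, more cells of a type and more RNA per cell cannot be told apart.

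Of these genes 5, Plod2, Crtap, Ppib, Lox and Bmp1, were higher than control at day 0 to 3, and all of these but Bmp1 also in week 1 to 2. None passed the test in week 3 to 4 or in decline, and none was lower in any phase. In these tests (limma, 1 fit over 5 groups, a Benjamini-Hochberg adjusted p over all genes of under 0.05) the share of all genes called higher was 4.46%, 5.41%, 0.958% and 0% in the 4 phases in order of time. At an unadjusted p under 0.05, 9, 9, 7 and 0 of the 10 differed from control, beside 26.1%, 29.9%, 23.9% and 12% of all genes. The median log2 change of the 10 was 0.88, 0.82, 0.64 and 0.30 in the 4 phases, against -0.12, -0.13, -0.09 and -0.05 over all genes. Because the 10 were chosen with earlier results of these data known, the values over all genes give scale and do not test the set. All phases were compared with the same 3 controls, so their changes are not independent of each other.

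The counts rested on few arrays. Without animal 16 or without animal 18 no member was called at day 0 to 3, where the 1 remaining array was assumed to vary like the other groups. The log2 changes then were 2.23 and 2.06 for Plod2, 1.47 and 1.51 for Crtap and 2.11 and 2.06 for Lox. At day 0 to 3, 3 were called without control 2, control 3 or animal 43. Without animal 43 or animal 52, 1 was called in week 1 to 2. Without control 1, which had the highest level of 8 of the 10 genes among controls, 9, 9 and 3 were called in the first 3 phases, and 1 was called in week 3 to 4 without animal 21 or animal 10. With animal 57 added, 0 were called in either early phase. The share of all genes called was not computed for these refits. Their counts therefore cannot be set against it and are not results about these genes alone.

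**Figure D1:**
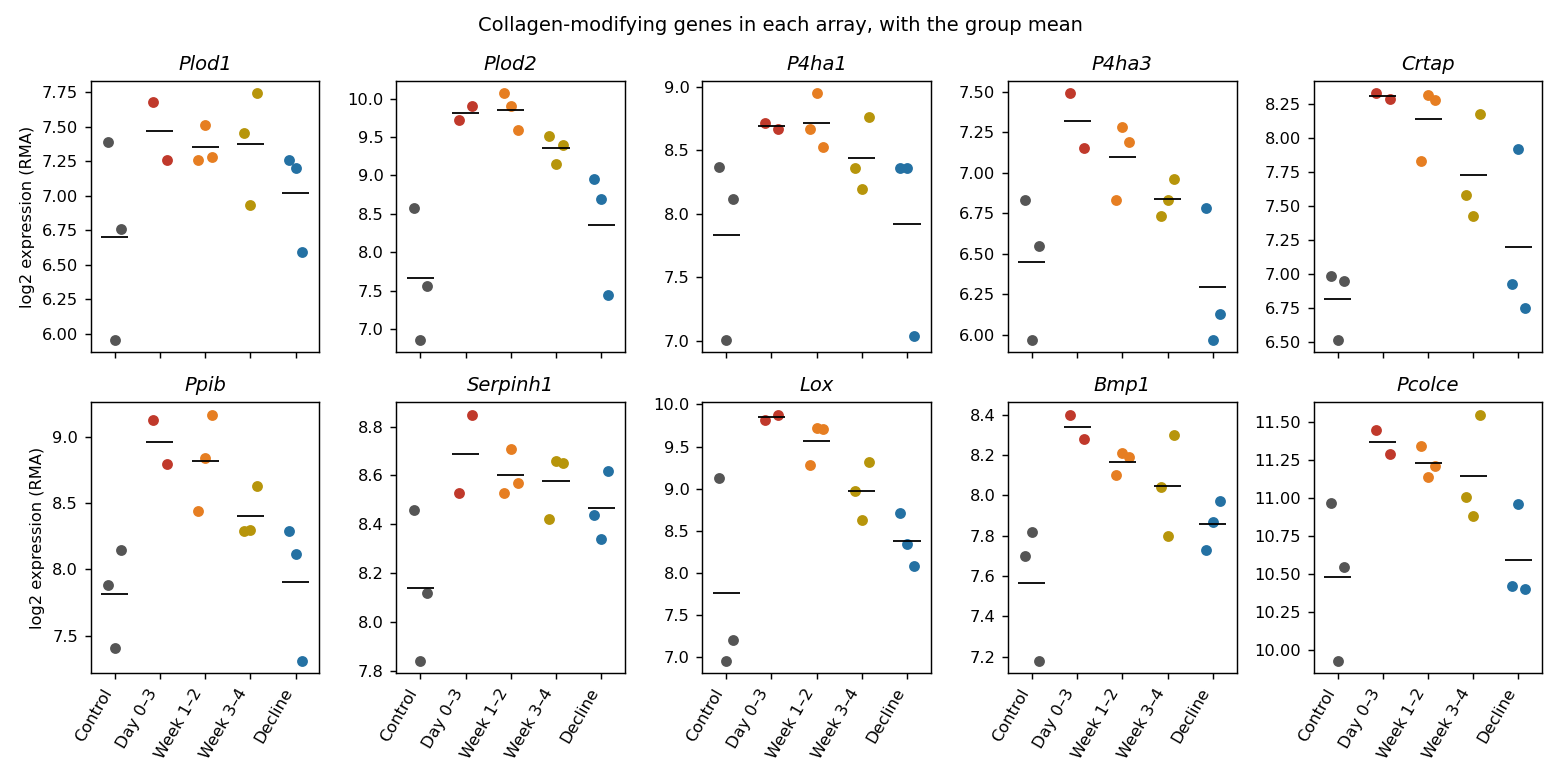
Log2 expression (RMA) of each of the 10 genes, 1 panel per gene and 1 point per array, for 3 controls and the 4 phases (2 joints in the first and 3 in each other); bars are group means and each panel has its own axis. The arrays of day 0 to 3 lie above every control for 9 of the 10 genes, all but Plod1, beside 18.4% of all genes. In decline none of the 10 has all arrays above every control, beside 3.80% of all genes.

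Reference genes had changes of similar size. Of 7 genes often used for normalisation, 5 were measured (Actb, Hprt, Ppia, Tbp and Ywhaz), and their median log2 change was 1.06, 1.09, 0.82 and 0.54 in the 4 phases, with 1, 3, 0 and 0 called higher. Ppia, cyclophilin A, had the largest of these, with a log2 change of 2.30 (SE 0.34, adjusted p = 0.00222) at day 0 to 3. The mean level of the 5 was 8.53 to 9.50 in controls and 10.32 to 10.45 at day 0 to 3, and over the 14 arrays it had a correlation of 0.95 with the mean of the 10 collagen genes. When each array was centred on these 5 genes, an alternative added after the data were seen, the median of all genes moved to -1.37 at day 0 to 3 and that of the 10 to -0.38. Under that scaling Plod2, Crtap and Lox kept a log2 change above 0 in the first 3 phases, and the other 7 lay below 0. With one median and SD for every array instead, the median of the 10 was 0.86, 0.74, 0.44 and 0.26 in the 4 phases. Of the 10 genes 10, 10, 10 and 8 then lay above 0, and 1 call was lost (Bmp1 at day 0 to 3). The part of signal range, cell composition and RNA amount in the rises was not tested, and the directions below hold for the deposited scaling.

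Of the 2 lysyl hydroxylases, which act at the first step, Plod2 rose and Plod1 passed no test. Plod2, which hydroxylates lysines of the collagen telopeptides (probe set 10587829), read 8.58, 6.86 and 7.56 on controls 1, 2 and 3. At day 0 to 3 it read 9.72 and 9.90, and in week 1 to 2 it read 10.07, 9.90 and 9.59. All arrays of both phases thus lay above every control. The rise was 4.42-fold at day 0 to 3 (log2 2.14, SE 0.45, limma adjusted p = 0.0139) and 4.55-fold in week 1 to 2 (log2 2.19, SE 0.40, adjusted p = 0.00671). In week 3 to 4 it read 9.51, 9.15 and 9.40, again above every control, and a log2 change of 1.69 (SE 0.40) missed the threshold at an adjusted p of 0.0528. In decline it read 8.95, 8.69 and 7.44, with animal 10 below 2 of the controls. Centred on the reference genes Plod2 was the one member still called higher, with log2 changes of 0.89, 1.05 and 0.90 in the first 3 phases (adjusted p = 0.041, 0.0099 and 0.039). With animal 57, which read 5.67, its change at day 0 to 3 was 0.76 (adjusted p = 0.87).

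Plod1, which hydroxylates lysines within the helix, lay at 5.96 to 7.39 in controls and 6.93 to 7.74 in the first 3 phases, and its groups overlapped throughout. Its log2 changes of 0.76, 0.65, 0.67 and 0.31 did not pass the test (adjusted p = 0.184 to 0.714). Within each array the log2 difference Plod2 minus Plod1 was 1.20, 0.89 and 0.80 in controls, while the 8 joints at score 3 had 1.66 to 2.81. Since both genes were read on the same array, this difference is not moved by a shift common to all genes of an array, although a change of signal range can alter it. It rose by 1.30 on the log2 scale (mean 2.27, SD 0.36, n = 8 against 0.96, SD 0.21, n = 3; exact two-sided permutation test p = 0.0061, the smallest that 165 arrangements allow; adjusted p = 0.024 over 4 pairs), and all 8 lay above every control. The difference in decline was 1.69, 1.49 and 0.85, and on animal 57 it was -1.22. With animal 57 the rise was 0.91 (adjusted p = 0.33). Without control 3 it was 1.22 (adjusted p = 0.089), where the unadjusted p was the smallest that 2 controls allow.

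Neither prolyl hydroxylase subunit passed the test. P4ha1, the widely expressed catalytic subunit of prolyl 4-hydroxylase, lay at 7.01 to 8.37 in controls, 8.67 to 8.72 at day 0 to 3 and 8.53 to 8.95 in week 1 to 2, above every control in both phases. Its log2 changes were 0.86, 0.89, 0.61 and 0.09 in the 4 phases (adjusted p = 0.127 to 0.943). P4ha3, a further catalytic subunit, lay at 5.97 to 6.83 in controls and 7.15 to 7.49 at day 0 to 3, and its log2 change there was 0.87 (SE 0.27, adjusted p = 0.0666). In decline P4ha3 read 6.78, 5.97 and 6.13 and was the one member with a mean below control (log2 -0.15, SE 0.24, adjusted p = 0.822). The difference P4ha3 minus P4ha1 was -1.55 at score 3 (SD 0.22, n = 8) and -1.38 in controls (SD 0.30, n = 3), and the change of -0.17 was within this spread (exact permutation p = 0.34).

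Of the 3 measured genes of the prolyl 3-hydroxylation complex, Crtap and Ppib rose in the early phases, while P3h1, its catalytic subunit, did not pass the test (log2 0.50, SE 0.20, adjusted p = 0.14 at day 0 to 3 and log2 0.36, SE 0.18, adjusted p = 0.198 in week 1 to 2). Crtap, its scaffold protein (probe set 10597413), read 6.99, 6.52 and 6.95 in controls, 8.33 and 8.29 at day 0 to 3, then 7.83, 8.32 and 8.28 in week 1 to 2. Both phases lay clear of control, with a 2.81-fold rise at day 0 to 3 (log2 1.49, SE 0.32, limma adjusted p = 0.0151) and a 2.51-fold rise in week 1 to 2 (log2 1.33, SE 0.28, adjusted p = 0.014). Week 3 to 4 read 7.58, 7.43 and 8.18, still above every control, with a log2 change of 0.91 (SE 0.28, adjusted p = 0.0986). The declining joints spread widely, from 6.75 to 7.92. The paper reports qPCR for Crtap whose correlation with the array values was not significant, though the pattern was the same. For Bmp1 it reports a significant correlation.

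Ppib, cyclophilin B, a prolyl isomerase of the endoplasmic reticulum (probe set 10586477), read 7.88, 7.41 and 8.15 in controls, 9.13 and 8.80 at day 0 to 3, then 8.44, 8.84 and 9.17 in week 1 to 2. Its rise was 2.22-fold (log2 1.15, SE 0.30, adjusted p = 0.0353) and 2.00-fold (log2 1.00, SE 0.27, adjusted p = 0.0346), and neither phase overlapped with control. Without control 2 both calls were lost, at log2 changes of 0.95 and 0.80 (adjusted p = 0.10 and 0.12). Week 3 to 4, at 8.29 to 8.63, lay above every control without a call (log2 0.59, SE 0.27, adjusted p = 0.203), and decline, at 7.31 to 8.29, overlapped with control.

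The within-array difference Crtap minus Ppib was -0.89, -0.90 and -1.21 in controls and -0.89 to -0.45 at score 3, so the groups met at one value. It moved by 0.33 (mean -0.67, SD 0.17, n = 8 against -1.0, SD 0.18, n = 3; exact permutation p = 0.012, adjusted p = 0.024). The call was lost without any 1 of 4 of the joints at score 3, where the change was 0.29 to 0.33 (adjusted p = 0.050 to 0.056). It was 0.22 without control 3 (adjusted p = 0.18) and 0.32 with the declining joints included (adjusted p = 0.14), where single arrays reached -1.35 and -0.20.

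Serpinh1, which binds the folded helix and accompanies it out of the endoplasmic reticulum, had the smallest log2 change of the 10 in the first 2 phases. It lay at 7.84 to 8.46 in controls, 8.53 to 8.85 at day 0 to 3 and 8.53 to 8.71 in week 1 to 2, above every control in both. Its log2 changes of 0.55, 0.46, 0.44 and 0.32 did not pass the test (adjusted p = 0.0951 to 0.472). Centred on the reference genes it was the one member called lower, in week 1 to 2 (log2 -0.67, adjusted p = 0.041).

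Proximal promoters of the folding genes are shown because Crtap and Ppib rose in the same phases while Serpinh1, of the same compartment, had the smallest change. RefSeq sequences held 7 of the 10 genes (Plod1, P4ha1, P4ha3, Crtap, Ppib, Serpinh1 and Pcolce). The 250 bases before the annotated start are given 5′ to 3′ on the gene's strand in GRCm38.p6, at chr9:114390713-114390962 (minus strand) for Crtap, chr9:66059919-66060168 (plus strand) for Ppib and chr7:99353240-99353489 (minus strand) for Serpinh1. Capitals mark the core of the hypoxia response element (ACGTG or GCGTG) and the CCAAT box, each on either strand.
Crtap: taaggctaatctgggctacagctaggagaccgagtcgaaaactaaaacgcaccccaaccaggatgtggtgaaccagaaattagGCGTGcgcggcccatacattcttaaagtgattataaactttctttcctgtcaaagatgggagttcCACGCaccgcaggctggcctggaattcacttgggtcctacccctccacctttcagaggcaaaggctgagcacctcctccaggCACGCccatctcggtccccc
Ppib: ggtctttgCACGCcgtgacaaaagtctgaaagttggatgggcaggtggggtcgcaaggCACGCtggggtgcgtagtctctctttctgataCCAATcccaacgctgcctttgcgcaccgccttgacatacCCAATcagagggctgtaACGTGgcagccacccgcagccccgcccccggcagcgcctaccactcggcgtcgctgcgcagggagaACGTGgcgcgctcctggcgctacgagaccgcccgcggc
Serpinh1: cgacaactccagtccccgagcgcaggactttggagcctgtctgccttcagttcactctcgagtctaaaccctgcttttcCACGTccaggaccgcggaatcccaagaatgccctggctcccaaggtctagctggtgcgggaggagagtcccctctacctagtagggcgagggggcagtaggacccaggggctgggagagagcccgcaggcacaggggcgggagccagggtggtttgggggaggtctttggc
The hypoxia core was in all 3 windows and in 6 of the 7, and in 38.6% of all 32851 promoter windows of this length. The GC box (GGGCGG) was likewise in 6 of the 7, and in 32.7% of all windows. The 7 windows held 53.6% (Crtap) to 69.6% (P4ha1) GC, beside a median of 52.4% over all windows. Enrichment of a motif was not tested. CCAAT was in Ppib alone of the 7, at positions -160 and -121 from the start, and in 33.8% of all windows. The whole endoplasmic reticulum stress element (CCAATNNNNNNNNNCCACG) was in none of the 7 and in 0.113% of all. A match describes letters only, and no binding was measured in these joints.

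Of the propeptide-trimming genes 1 was called. Bmp1, the procollagen C-proteinase (probe set 10421361), read 7.70, 7.82 and 7.18 in controls, 8.40 and 8.28 at day 0 to 3, then 8.10, 8.21 and 8.19 in week 1 to 2. Its 1.71-fold rise passed at day 0 to 3 (log2 0.77, SE 0.20, adjusted p = 0.034). In week 1 to 2 the log2 change of 0.60 (SE 0.18) lay at an adjusted p of 0.0504. The call at day 0 to 3 was lost with a second quantile normalisation (log2 0.50, adjusted p = 0.26) and with one median and SD for every array (log2 0.61, adjusted p = 0.11). Pcolce, which enhances the C-proteinase, lay at 9.93 to 10.97 in controls, 11.29 to 11.45 at day 0 to 3 and 11.14 to 11.34 in week 1 to 2, above every control. Its log2 changes were 0.89 (SE 0.28, adjusted p = 0.0702) and 0.75 (SE 0.25, adjusted p = 0.0725), followed by 0.66 in week 3 to 4 and 0.11 in decline.

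Lox, the copper-dependent oxidase of lysines (probe set 10458894), rose almost as far as Plod2. It read 9.13, 6.96 and 7.21 in controls, so that control 1 stood well above the other two. At day 0 to 3 it read 9.82 and 9.88, and in week 1 to 2 it read 9.28, 9.72 and 9.71, above every control. The rise was 4.24-fold (log2 2.08, SE 0.47, adjusted p = 0.0198) and 3.49-fold (log2 1.80, SE 0.42, adjusted p = 0.0201). Both calls were lost without control 2, at log2 changes of 1.68 and 1.40 (adjusted p = 0.055 and 0.07), or without control 3, at 1.81 and 1.53 (adjusted p = 0.058 and 0.069). Week 3 to 4 read 8.97, 8.63 and 9.32 and overlapped with control 1, with a log2 change of 1.21 (SE 0.42, adjusted p = 0.128) that was 1.89 and called without that control (adjusted p = 0.0037). Decline read 8.71, 8.34 and 8.08.

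The difference Lox minus Bmp1 was 1.43, -0.86 and 0.03 in controls and 0.83 to 1.61 at score 3, which overlapped. It rose by 1.05 (mean 1.25, SD 0.30, n = 8 against 0.20, SD 1.16, n = 3; exact permutation p = 0.036, adjusted p = 0.048). The call was lost in 10 of 11 cases when each array was left out in turn. Without any 1 of the 8 joints at score 3 the rise stayed at 1.00 to 1.11 (adjusted p = 0.056 to 0.067). It was 0.52 without control 2 and 0.97 without control 3 (both adjusted p = 0.18).

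**Figure D2:**
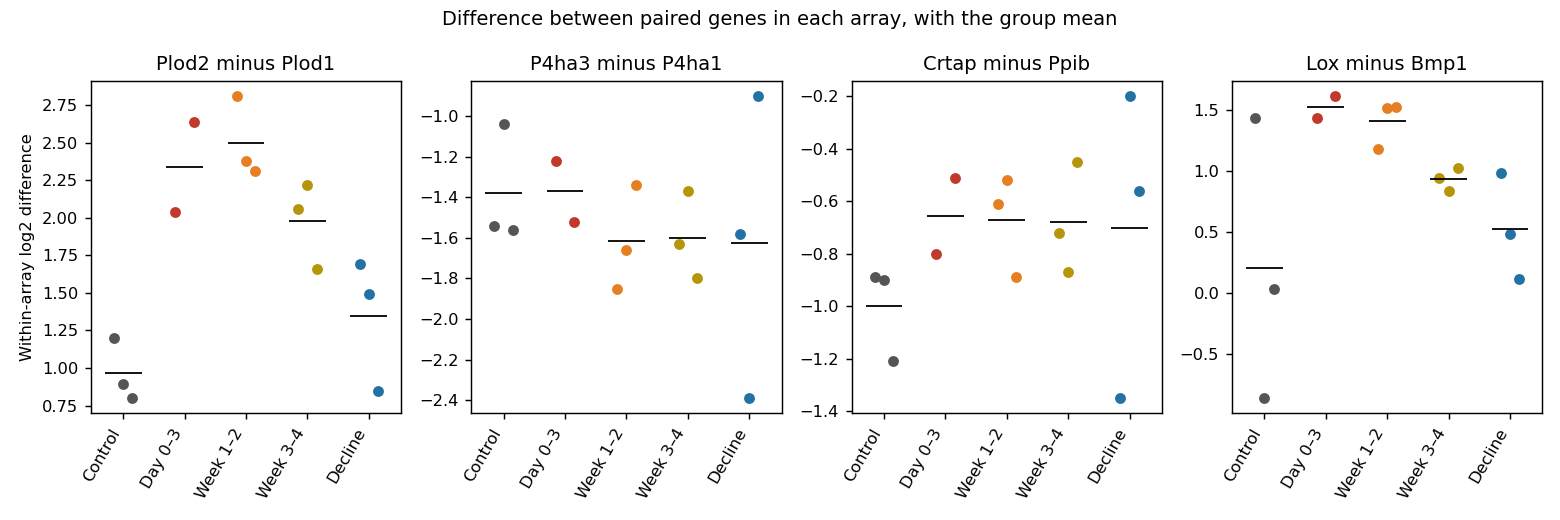
Within-array log2 difference between the genes of 4 pairs, 1 point per array, with the group mean as a bar, in the 5 groups. For Plod2 minus Plod1 all 8 joints at score 3 (1.66 to 2.81) lie above the controls (0.80 to 1.20), while P4ha3 minus P4ha1 overlaps in all groups.

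**Figure D3:**
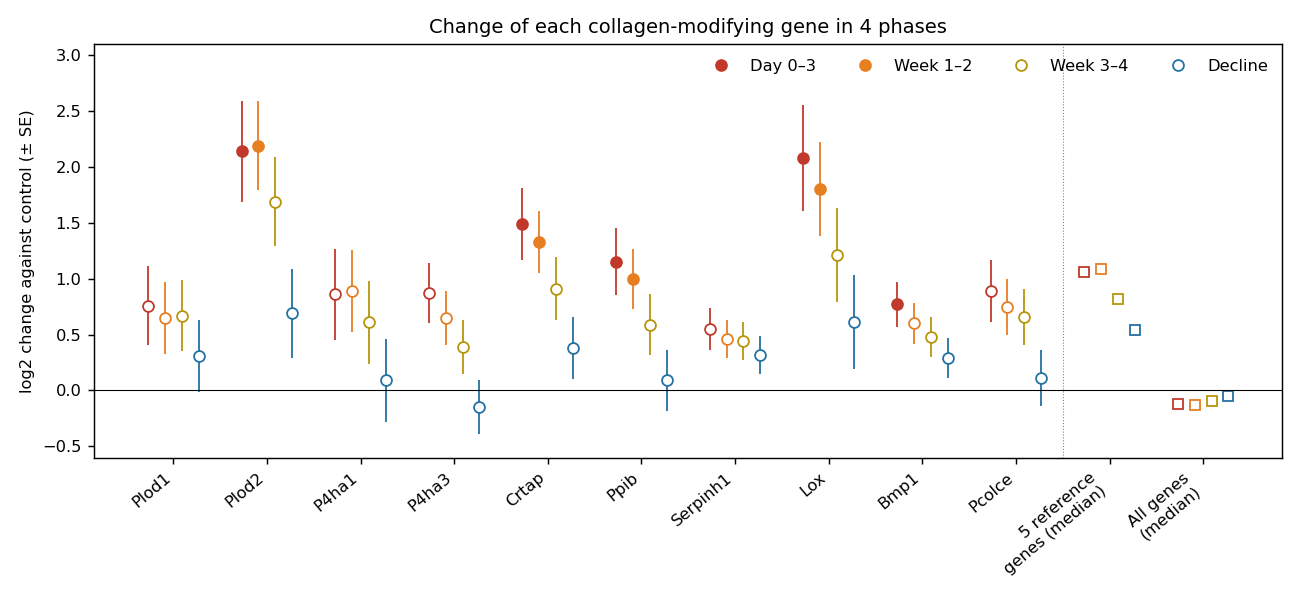
Log2 change against control of each gene with its standard error, for 4 phases; filled circles passed the test and open circles did not, and the open squares at the right are the medians of 5 reference genes and of all genes. Plod2 and Lox have the highest values in every phase, and the reference genes lie above the median of the 10 in every phase.

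Over the groups, the mean was highest at day 0 to 3 for 8 of the 10 genes and in week 1 to 2 for Plod2 and P4ha1, and the lowest mean was that of the controls for all but P4ha3. Every array lay above every control for 9, 8, 3 and 0 genes in the 4 phases, the 3 of week 3 to 4 being Plod2, Crtap and Ppib. Over all genes these shares were 18.4%, 13.6%, 10.5% and 3.80%, given for scale and not as a test of the set.

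The phases were also compared with each other, and no member passed a test in either direction. From day 0 to 3 to week 1 to 2 the log2 changes ran from -0.28 (Lox) to 0.04 (Plod2), with 0 members and 1.79% of all genes at an unadjusted p under 0.05, and 0.00502% of all genes were called higher and 0% lower. Against week 0 to 2, week 3 to 4 was lower for all 10, from -0.04 (Plod1) to -0.74 (Lox), again with 0 members, beside 7.27% of all genes, at an unadjusted p under 0.05 and with 0.00502% and 0% of all genes called. From week 3 to 4 to decline all 10 lay lower, from -0.11 (Serpinh1) to -0.99 (Plod2), with a median of -0.52 against 0.02 over all genes, and 0% of all genes were called in either direction. In that step 3 genes, Plod2, P4ha3 and Pcolce, had an unadjusted p under 0.05 in limma, as had 6.13% of all genes, and all 3 had an adjusted p of 0.787. Names of the arthritic arrays used carry 1 of 2 letter codes of unstated meaning. The first is on the arrays of week 0 to 2 and animal 54, and the second on animals 29 and 60 and the declining joints. The controls and animal 57 have neither code, so in every comparison with control the code cannot be told apart from arthritis. With the second code as a covariate 0 members were called in the last 2 comparisons, as without it.

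The wider assembly pathway, 26 genes with 23 measured, was called in part. In it the same 4 genes were higher in both early phases, none later, and none was lower, and the median log2 change was 0.50, 0.41, 0.23 and 0.13 in the 4 phases. P4hb, protein disulfide isomerase and the partner subunit of the prolyl 4-hydroxylases, rose by 1.40 (SE 0.25, adjusted p = 0.00677) and 1.15 (SE 0.23, adjusted p = 0.00965) on the log2 scale. Fkbp14, a prolyl isomerase of the endoplasmic reticulum, rose by 1.27 (adjusted p = 0.0411) and 1.44 (adjusted p = 0.0138). Atp7a, the copper transporter that supplies Lox, rose by 1.15 (adjusted p = 0.011) and 0.93 (adjusted p = 0.0156). Tll1, a proteinase related to Bmp1, rose by 0.65 (adjusted p = 0.0473) and 0.67 (adjusted p = 0.0244).

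The fibrillar collagen chains, the substrates, were called mainly in week 1 to 2. Of 11 measured, 0, 5, 1 and 0 were called higher in the 4 phases, and their medians were 0.27, 0.24, 0.22 and 0.29. Col1a2, a chain of type I collagen, had log2 changes of 0.89 (adjusted p = 0.0578) and 1.13 (adjusted p = 0.0128) in the first 2 phases, and Col1a1 had 0.80 (adjusted p = 0.119) and 1.10 (adjusted p = 0.0252). Col3a1 of type III collagen had 0.91 (adjusted p = 0.0546) and 1.07 (adjusted p = 0.0167). Col5a2 of type V collagen was the chain called also in week 3 to 4 (log2 0.97, SE 0.22, adjusted p = 0.0461), and Col11a1 rose by 0.85 in week 1 to 2 (adjusted p = 0.016). Over the 14 arrays the correlation with Col3a1 ran from 0.60 (P4ha3) to 0.88 (Lox) and that with Col1a1 from 0.35 (Ppib) to 0.84 (Serpinh1).

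Among 10 general chaperones and folding enzymes of the endoplasmic reticulum, 6, 4, 1 and 0 were higher in the 4 phases and none was lower, with medians of 1.22, 0.76, 0.74 and 0.37. Dnajb9, a co-chaperone of BiP, rose by 1.80 (adjusted p = 0.0107) at day 0 to 3, Hsp90b1 by 1.64 (adjusted p = 0.0116) and Hspa5, BiP itself, by 1.52 (adjusted p = 0.00855). Pdia4 was the one called in week 3 to 4 (log2 1.04, adjusted p = 0.0346). The mean of these 10 chaperones and enzymes had a correlation of 0.97 with that of the 10 collagen genes over the 14 arrays. P4ha1, Plod2 and Lox are known targets of hypoxia-inducible factor in other settings, and of 9 other such targets 0 were higher in any phase, with medians of -0.24, -0.19, -0.14 and -0.36. Egln3, a prolyl hydroxylase that marks that factor for degradation, fell by 1.36 in week 1 to 2 (adjusted p = 0.0411), Slc2a1, a glucose transporter, had the highest change at day 0 to 3 (0.27, adjusted p = 0.386) and Vegfa had -0.32 (adjusted p = 0.419). Whether hypoxia had a part in the changes of the 10 genes was not tested.

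**Figure D4:**
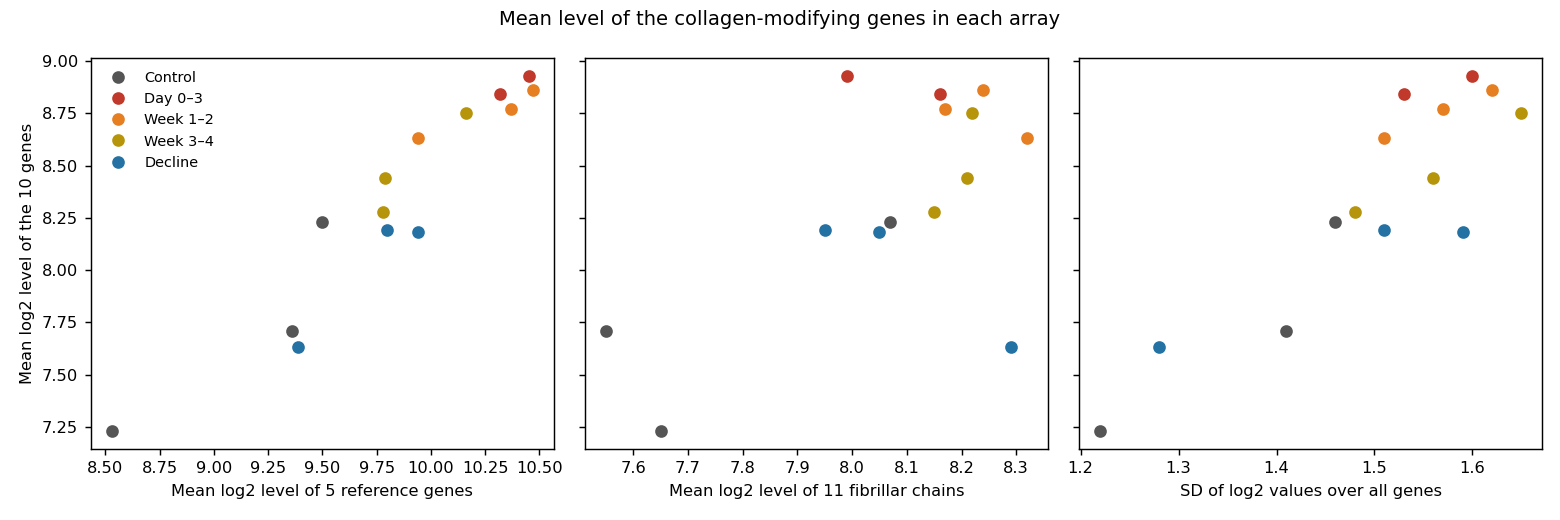
Mean log2 level of the 10 genes on each of 14 arrays against the mean log2 level of 5 reference genes, the mean of 11 fibrillar collagen chains and the SD over all genes, 1 point per array coloured by group. The points follow the reference genes (r = 0.95) more closely than the fibrillar chains (r = 0.61), and the controls have a narrower range than the first 3 phases.

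Across the 14 arrays the 10 genes went together, with correlations from 0.42 (P4ha1 with Bmp1) to 0.92 (Plod2 with Lox) and a median of 0.79 over 45 pairs. Those arrays share phases and signal range, and the correlation with the SD over genes ran from 0.51 (Bmp1) and 0.58 (Serpinh1) to 0.93 (Plod1 and P4ha1). With the reference mean it ran from 0.67 (Bmp1) to 0.92 (Crtap). The gene outside the list closest to Lox was Postn, a matrix protein of fibroblasts and periosteum (r = 0.983), and the one closest to Bmp1 was Spon1, a secreted matrix protein (r = 0.930). For Plod2 it was Tpm4, a tropomyosin (r = 0.985), for Crtap Gnai2, a G protein subunit (r = 0.986), and for Ppib Cyrib (r = 0.971). For Pcolce it was Dad1, a subunit of the oligosaccharyltransferase (r = 0.973), for Plod1 Pdcd6ip (r = 0.965), for P4ha1 Dpp8 (r = 0.980), for P4ha3 Nipa2 (r = 0.949) and for Serpinh1 Commd2 (r = 0.888).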

How the data were processed

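The authors amplified joint RNA with a NuGEN Pico kit, hybridised it to one-colour Affymetrix Mouse Gene 1.0 ST arrays, and processed the arrays by RMA (background correction, quantile normalisation, probe summary) with affy in R 2.15, per the submitters' processing notes. The authors deposited log2 values, from 1.56 to 14.26. Of 35556 probe sets, the 21789 naming 1 gene were used (1621 with several and 12146 not listed were left out), and where several named the same gene that of highest mean over the 14 arrays was kept, giving 19938 genes. Symbols were brought up to date through RefSeq gene identifiers (21698 matched). The 5 group means were fitted over 14 arrays in limma 3.58.1 under R 4.3.3 without a filter, with 7 contrasts. Pair differences were tested by exact permutation over arrays and adjusted over 4 pairs. The limma script was tested on simulated data. Plots were made in Python 3.11.15 with matplotlib 3.10.9.

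The 10 genes and all lists were chosen with earlier results of these data known. Named were all 10 members, other assembly genes called in any phase, up to 4 genes of each further list by largest absolute change in any phase, and for each member the most correlated gene outside the list. P3h1, Pdia4, Col11a1, Adipoq, Plin1 and the reference genes were named after their values were seen. Arrays give no read depth, so precision rests on the 2 or 3 mice per group and on each array's signal range. Alternatives were all 15 arrays, each array left out, the 2 compared groups alone, the methods' ANOVA, other moderation, weights, scalings, limits on low values and probe set rules, a 2-fold limit, and the letter code as covariate.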

Additional observations from a re-analysis of the deposited data

How the results depend on the processing

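No paired analysis was possible because the arrays come from separate mice and the replicate numbers only name them. The count at day 0 to 3 was 5 and became 0 with all 15 arrays, 1 with only the 2 compared groups fitted, 0 with the methods' ANOVA and 3 with all probe sets; leaving out 1 array gave 0 to 9. In week 1 to 2 it was 4 and became 0, 2 and 0 under the first 3 of these; leaving out 1 array gave 1 to 9. In week 3 to 4 it was 0 and became 1 with array weights, 1 with a highest group mean of at least 6 and 1 without control 2 and animal 10 together, which was added after the data were seen; leaving out 1 array gave 0 to 3. Centring on the 5 reference genes, also added then, gave 1, 1 and 1 in these phases. The other 4 counts stayed at 0 under every setting tried. The share of all genes called was computed for the main fit only.

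Under that centring, log2 changes turned below 0 at day 0 to 3 (Plod1 -0.49, P4ha1 -0.39, P4ha3 -0.38, Ppib -0.11, Serpinh1 -0.71, Bmp1 -0.49, Pcolce -0.37), in week 1 to 2 (-0.48, -0.25, -0.48, -0.13, -0.67, -0.54 and -0.39 for the same genes), in week 3 to 4 (-0.11, -0.17, -0.39, -0.19, -0.35, -0.30 and -0.12) and in decline (Plod1 -0.27, P4ha1 -0.49, Crtap -0.20, Ppib -0.49, Serpinh1 -0.26, Bmp1 -0.29, Pcolce -0.47). The other 18 changes of sign were all in decline: P4ha3 0.04 and Pcolce -0.08 with array weights, P4ha1 -0.03, Ppib -0.06 and Pcolce -0.15 with a second quantile normalisation, Pcolce -0.13 with one median and SD per array and -0.07 without control 2 and animal 10. Leaving out 1 array moved decline to between -0.06 and 0.65 for Plod1, -0.32 and 0.53 for P4ha1, -0.40 and 0.03 for P4ha3, -0.11 and 0.39 for Ppib and -0.17 and 0.35 for Pcolce. Of 1160 recomputed changes 1024 kept sign and side of the threshold and 46 changed sign. Among those that kept their sign, 60 lost a call and 30 gained one. The 46 include calls lost under the centring on reference genes, for Ppib in both early phases and Bmp1 at day 0 to 3. They also include the lower call of Serpinh1 in week 1 to 2. Only the 5 calls at day 0 to 3 and the 4 in week 1 to 2 could be lost, so most of the 1160 had no call to lose.

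With all 15 arrays the pair differences were 0.91 for Plod2 minus Plod1 (adjusted p = 0.33 by exact permutation), 0.37 for Crtap minus Ppib (0.091) and 0.77 for Lox minus Bmp1 (0.33). Lox minus Bmp1 was 1.09 with a second quantile normalisation, 1.05 with one median and SD (both adjusted p = 0.065) and 0.85 with decline included (0.10), where Crtap minus Ppib was 0.32. P4ha3 minus P4ha1 turned to 0.08 and 0.02 under these 2 scalings. Leaving out 1 array gave 1.22 to 1.42, -0.26 to 0.00, 0.22 to 0.38 and 0.52 to 1.67 for Plod2 minus Plod1, P4ha3 minus P4ha1, Crtap minus Ppib and Lox minus Bmp1. With 2 controls the smallest p allowed is 0.022 before adjustment. The causes of these changes were not tested.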
